A study of Equus caballus with 45 samples.

Results

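IL-1β and TNF-α are cytokines commonly used to bring joint cells into an inflamed state in culture, and the expression response to the pair was described here in equine chondrocytes, synoviocytes and macrophages. Of 45 samples in the series, 6 libraries made up the comparison, 1 with the cytokines and 1 with no addition for each of 3 cell types. They were picked out by their labels, as the libraries labelled with IL-1β and TNF-α and those labelled with no addition. Earlier results of these data were known when the comparison was chosen. The chondrocytes had been expanded from cartilage, the synoviocytes were used at passage 2 and the macrophages were raised from blood monocytes for 5 days with human M-CSF. By the study's account each cell type came from 1 horse, and the sources read here leave unclear whether it was the same animal for all 3. Every difference below is therefore taken to be between 2 cultures of 1 animal. The labels of the 2 single synoviocyte libraries nevertheless carry different names, PC with the cytokines and ORC with no addition. The study describes the exposure in 2 ways. Its methods and the labels have recombinant IL-1β and TNF-α present for 24 h, followed by a wash and a further 24 h in plain medium before RNA was taken. Its abstract gives 2 h of cytokines before the wash, so the length of the exposure is uncertain, and in either account RNA was taken at least 24 h after the cytokines were removed. The study's methods give 20 ng/mL of each cytokine, while the macrophage labels give 10 ng/mL, and the chondrocyte labels give no dose. A further 27 libraries, 9 for each cell type, received the same cytokines and also conditioned medium of mesenchymal stromal cells (MSC). The medium was added together with the cytokines or after them, depending on the account. The MSC had been left resting, given a TLR3 agonist or given a STING agonist. By the study's account they came from 3 donor horses. The labels of the 27 libraries carry the names AG1, ORC and PC, read here as those of the MSC donors. The MSC libraries of the same series carry PC but neither AG1 nor ORC, so this reading is an inference. The 27 conditioned medium libraries served to measure the spread between libraries and are given as ranges beside the cytokine values.

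IL-1β binds the receptor IL1R1 and signals through the adaptor MYD88 and kinases of the IRAK family, and TNF-α binds TNFRSF1A and signals through TRADD, RIPK1 and TRAF2. Both routes meet at the IKK complex, which releases NF-κB from its inhibitors, and NF-κB in turn switches on chemokines, interleukins, matrix proteases and prostaglandin synthesis together with inhibitors that end its own activity. In cartilage and synovium the pathway is known for driving matrix breakdown and for shutting down the genes that build cartilage matrix.

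The 6 libraries held between 24461421 and 39558744 counts of read pairs over protein-coding genes, so that 3 counts, taken as the limit of detection, stood at 0.0751 to 0.125 CPM (counts divided by library size in units of 1e6). The cell types kept parts of their labelled identity. All 19 macrophage markers in the table had counts in the macrophage libraries, with a summed level of 21568 CPM without and 20956 CPM with the cytokines, against 64.4 to 143 CPM in the other cells, most of it CTSS (cathepsin S), which rose in synoviocytes from 75.8 to 122 CPM. The macrophage cultures also held T cell transcripts, with CD3E at 91.4 and 89.01 CPM, and the 15 lymphocyte markers in the table summed to 1040 and 1022 CPM. COL2A1, the defining collagen of cartilage, stood at 0.184 and 0.1001 CPM in the chondrocyte libraries and COL9A1 did not reach the count minimum there, while ACAN (aggrecan), COMP and SOX9 were present. The cultures labelled chondrocytes therefore held next to none of the type II collagen transcript that marks differentiated cartilage cells. The 14 synovial fibroblast markers in the table summed to 128685 and 108335 CPM in synoviocytes and to 99268 and 60507 CPM in chondrocytes, so these markers did not separate the stromal cells. Endothelial markers summed to 62.4 to 110 CPM in all 6 libraries, and granulocyte markers to 285 and 305 CPM in macrophages and under 1 CPM in the others.

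With 1 library on each side, no comparison has a spread of its own. The difference was tested with edgeR's quasi-likelihood test over the 11 libraries of a cell type, where the 3 conditioned medium groups of 3 libraries supply the spread (6 residual degrees of freedom) and each single library is assumed to vary like them. Each adjusted p was corrected by the Benjamini-Hochberg method over the whole table of tested genes, and log2 fold changes carry the standard error (SE) of that fit. In chondrocytes the 3 libraries given medium of donor ORC stood apart from the other 6. CXCL8, the neutrophil chemokine interleukin-8, spanned 35.7 to 185 CPM in those 3 libraries and 890.2 to 3374 CPM in the other 6. The fit by group alone counts this difference between donors as noise. For chondrocytes the adjusted p of a second fit that takes the MSC donor as a block is therefore given beside the first, named as with the donor term. Same-donor libraries deviated together in chondrocytes and macrophages. In synoviocytes they did so weakly between the TLR3 and STING medium groups, and not with the resting group for donors AG1 and ORC. For synoviocytes the p with the donor term is given only where it ends a call. Member counts with the donor term in chondrocytes are to be read against the far larger shares of all genes that this fit called, 13% higher and 12.1% lower.

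IL-1β plus TNF-α changed the expression of many genes in chondrocytes and synoviocytes, and of none by the test in macrophages. In synoviocytes 602 genes rose and 436 fell of 14759 tested, which is 4.08% and 2.95% of them (3.39% and 2.2% with the donor term). In chondrocytes 91 rose and 49 fell of 14490 (0.628% and 0.338%), 1885 rose and 1751 fell with the donor term (13% and 12.1%), and 2638 in all passed when the 3 ORC libraries were left out of the fit. With the spread taken from the resting medium group alone 1 gene passed in chondrocytes and 685 in synoviocytes, and the joint fit of all 33 libraries called 698 and 61, so the number of calls rests on which libraries supply the spread. In macrophages 0 of 15175 genes passed by edgeR, with or without the donor term, and 0 by DESeq2. There 153 genes had an unadjusted p under 0.05 by edgeR and 97 by DESeq2. Counted by size alone, as at least a 2-fold difference with at least 1 CPM in the higher library, 662 genes were higher and 677 lower in chondrocytes (5.61% and 5.74% of 11804), 367 and 305 in synoviocytes (3.09% and 2.56% of 11894), and 75 and 41 in macrophages (0.644% and 0.352% of 11637). Changes of at least 8-fold numbered 89 higher and 57 lower in chondrocytes against 34 and 10 in synoviocytes.

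The difference between the 2 single libraries was set against that between replicate libraries. Over genes averaging at least 5 CPM, the median absolute log2 ratio between the cytokine and no addition libraries was 0.252 in chondrocytes, 0.180 in synoviocytes and 0.0981 in macrophages. The 9 pairs of libraries within a medium group gave 0.101 to 0.222, 0.0788 to 0.136 and 0.0977 to 0.217. All replicate pairs lay below the cytokine difference in chondrocytes and synoviocytes, and 8 of 9 lay above it in macrophages. The 2 macrophage libraries thus differed less than most pairs of libraries that had been treated alike except for the MSC donor.

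Chemokines that draw neutrophils were among the genes that moved most. CXCL6 was at 338 CPM without and 30785 CPM with the cytokines in chondrocytes, and at 176 and 7703 CPM in synoviocytes. Both rises passed, with log2 fold changes of 6.51 ± 1.23 (SE, adjusted p = 0.049) and 5.46 ± 0.21 (adjusted p = 4.2e-09). CXCL8 went from 3.03 to 3274 CPM in chondrocytes, with an adjusted p of 0.24 and of 1.9e-05 with the donor term. In synoviocytes CXCL8 rose from 0.568 to 23.2 CPM (log2 fold change 5.34 ± 0.40, adjusted p = 2.1e-06), so the level reached differed between the stromal cells far more than it did for CXCL6. CXCL1, a further ligand of the same receptor family, was at 21.6 and 2712 CPM in chondrocytes (adjusted p = 0.15, 2.3e-07 with the donor term) and rose from 14.6 to 506 CPM in synoviocytes (adjusted p = 4.3e-09). CCL20, which draws Th17 cells and dendritic cells, was at 81.7 and 994 CPM in chondrocytes (adjusted p = 0.52, 4.6e-06 with the donor term) and rose from 23.6 to 93.8 CPM in synoviocytes. CCL5 rose in synoviocytes from 1.48 to 19.5 CPM. CXCL12, the homeostatic chemokine that holds stem and immune cells in tissues, went the other way, from 49.3 to 24.04 CPM in synoviocytes (adjusted p = 0.0019) and from 32.5 to 5.73 CPM in chondrocytes (adjusted p = 0.22, 4.5e-08 with the donor term). Of 15 chemokines tested, 6 rose and 1 fell in synoviocytes, against 4.08% and 2.95% of all genes. In chondrocytes 1 rose, against 0.628%, and 7 rose and 1 fell with the donor term, against 13% and 12.1%. The summed chemokine level went from 448 to 8622 CPM in synoviocytes and from 855 to 38168 CPM in chondrocytes.

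Macrophages stood at the opposite end, with chemokines high before any cytokine was added. CXCL8 was at 5411 CPM without and 3937 CPM with the cytokines, inside the 2905 to 8740.5 CPM of the 9 conditioned medium libraries. CCL2, the monocyte chemokine, was at 8689 and 6786 CPM, and CXCL6 at 1558 and 1622 CPM. The 19 chemokines in the table summed to 31464 CPM without and 26413 CPM with the cytokines. The untreated sum was above the 8622 CPM of synoviocytes with the cytokines and below the 38168 CPM of chondrocytes with them. The stromal sums cover the 15 chemokines tested there, and each cell type was scaled separately. None of the 19 passed the test in macrophages.

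**Figure D1:**
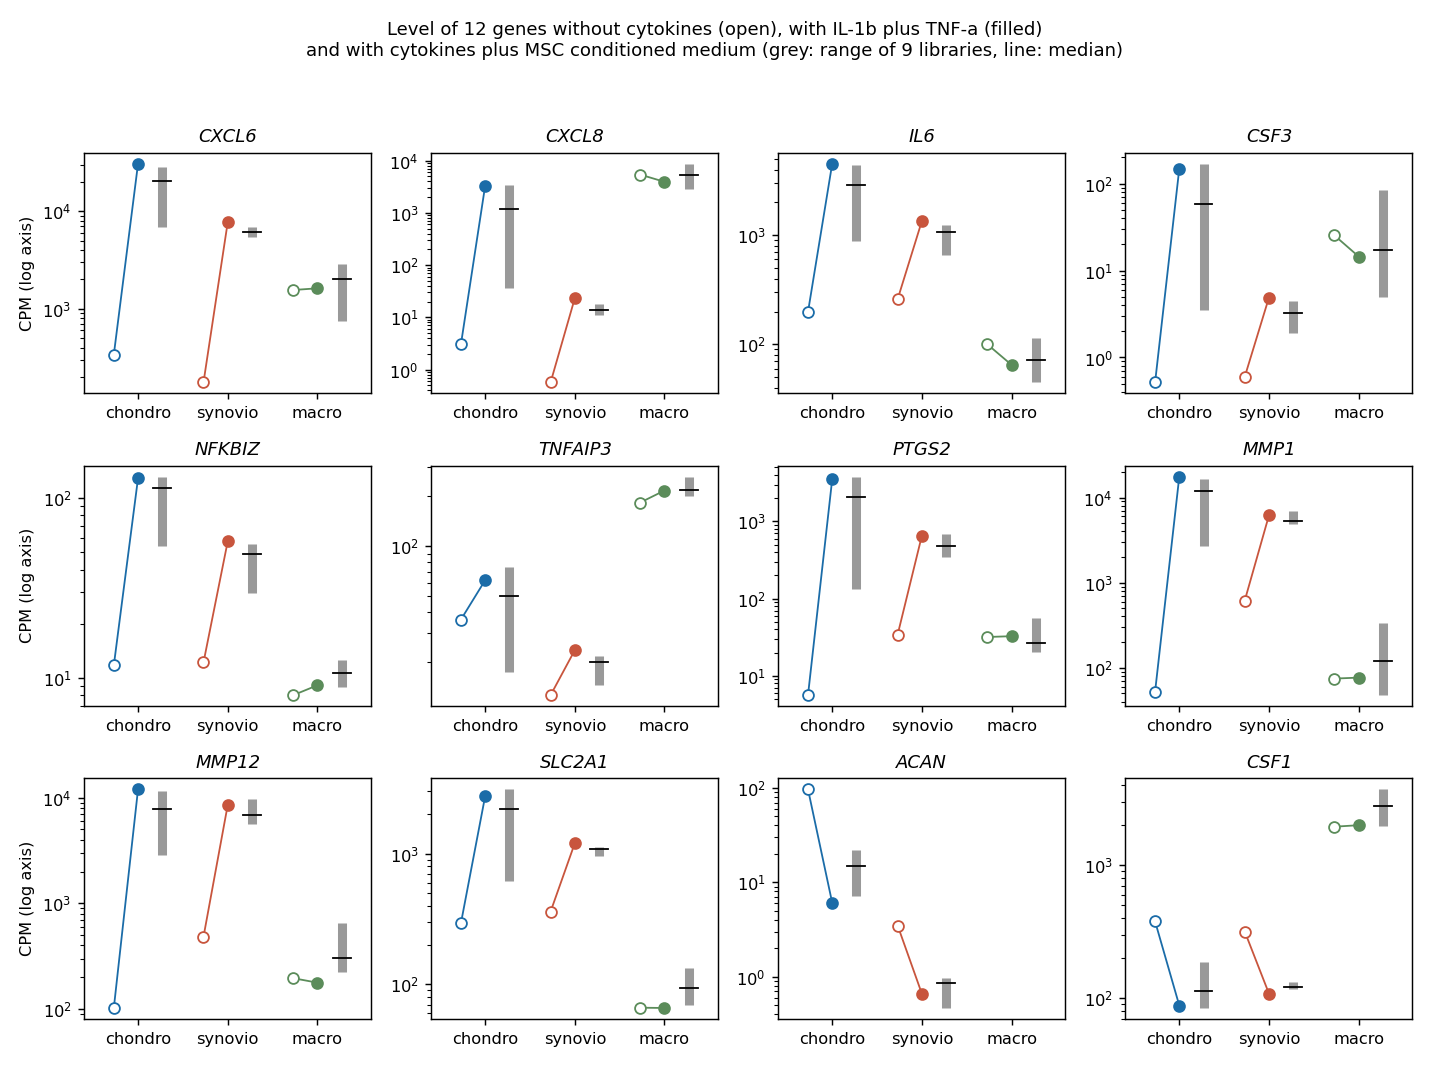
CPM on a log axis for 12 genes in chondrocytes, synoviocytes and macrophages, with an open circle for no addition, a filled circle for IL-1β plus TNF-α and a grey bar for the range of the 9 libraries given cytokines and MSC conditioned medium (line, median). CXCL8 reached 3274 CPM in chondrocytes and 23.2 CPM in synoviocytes and stood at 5411 CPM in untreated macrophages. Its grey bar is longer in chondrocytes than in the other cells. ACAN had no count in the 2 single macrophage libraries and is not drawn there.

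Interleukins and growth factors of the IL-6 family followed the chemokines. IL6 was at 198 and 4536 CPM in chondrocytes (adjusted p = 0.13, 6.1e-09 with the donor term) and rose from 260.0 to 1352 CPM in synoviocytes (log2 fold change 2.38 ± 0.27, adjusted p = 8.7e-05). IL11, a relative of IL6 that acts on stromal cells, rose from 12.7 to 252 CPM in synoviocytes (adjusted p = 1.4e-06) and stood at 19.8 and 1594 CPM in chondrocytes (adjusted p = 0.11, 1.8e-06 with the donor term). LIF, a further member, rose from 4.197 to 22.5 CPM in synoviocytes (adjusted p = 6.2e-05). CSF3, which drives neutrophil production, rose from 0.5996 to 4.896 CPM in synoviocytes (adjusted p = 0.0023) and went from 0.517 to 149 CPM in chondrocytes, where the adjusted p was 0.26 and 1.9e-04 with the donor term. INHBA, the activin A subunit, rose in both, from 37.4 to 96.1 CPM in chondrocytes (adjusted p = 0.014) and from 60.6 to 131 CPM in synoviocytes (adjusted p = 0.0012). Of 29 cytokines and growth factors tested, 7 rose and 3 fell in synoviocytes, against 4.08% and 2.95% of all genes. In chondrocytes 1 rose and 1 fell, against 0.628% and 0.338%. With the donor term 15 rose and 4 fell there, against 13% and 12.1%, the falls being near that share.

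The stromal cells also expressed the genes of IL-1 family ligands. IL1B had 2 counts in the untreated chondrocytes and 568 with the cytokines, a ratio of CPM of 193 (95% counting interval 53.1 to 1595), for levels of 0.0738 and 14.2 CPM (adjusted p = 0.43, 7.2e-05 with the donor term). In synoviocytes IL1B had 0 counts without and 17 with the cytokines, at least 6.56-fold higher against a floor of 3 counts in that library (adjusted p = 0.031, 0.065 with the donor term). IL1A had 0 counts without and 433 with the cytokines in chondrocytes, at least 97.9-fold higher (adjusted p = 0.42, 2.1e-04 with the donor term). In the ORC medium chondrocytes IL1A had no count in any library and IL1B reached at most 0.265 CPM, against up to 13.6 and 16.004 CPM in the others. IL36G, an IL-1 family member of epithelia, rose from 0.316 to 9.98 CPM in synoviocytes (adjusted p = 4.2e-05) and was at 0.664 and 88.2 CPM in chondrocytes. The gene of TNF itself was not among the genes tested in either stromal cell. In macrophages IL1B was at 182 CPM without and 102 CPM with the cytokines, TNF at 30.6 and 28.5 CPM, and IL6 at 100.1 and 64.8 CPM. None of these passed, and each cytokine library value lay within the range of the 9 conditioned medium libraries for IL1B (77.97 to 421 CPM) and IL6 (44.7 to 113 CPM).

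Some growth factors were lower with the cytokines. CSF1, the macrophage growth factor, fell from 317 to 108 CPM in synoviocytes (log2 fold change −1.55 ± 0.11, adjusted p = 1.7e-06) and was at 378 and 87.97 CPM in chondrocytes (adjusted p = 0.15, 3.8e-08 with the donor term). IL16, a ligand of CD4, fell in both, from 41.99 to 6.48 CPM (adjusted p = 0.049) and from 38.3 to 14.1 CPM (adjusted p = 1.1e-04). TGFB3, a growth factor that promotes cartilage matrix, fell from 203 to 97.8 CPM in synoviocytes (adjusted p = 0.0039) and was at 158 and 21.4 CPM in chondrocytes (adjusted p = 0.20, 2.4e-07 with the donor term).

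Of the NF-κB pathway itself, induced inhibitors and subunits rose in synoviocytes, and of 23 receptors and adaptors 2 rose and 1 fell there. NFKBIZ, an atypical inhibitor protein that also co-activates IL6 and related genes, was at 11.7 and 129 CPM in chondrocytes (log2 fold change 3.46 ± 0.68, adjusted p = 0.057, 2.7e-10 with the donor term) and rose from 12.2 to 57.3 CPM in synoviocytes (2.23 ± 0.28, adjusted p = 2.2e-04). ZC3H12A, the RNase that degrades cytokine transcripts, rose from 12.9 to 62.8 CPM in synoviocytes (adjusted p = 3.0e-05) and was at 12.2 and 113 CPM in chondrocytes (adjusted p = 0.066, 1.3e-07 with the donor term). NFKBIA, which encodes IκBα, the classical inhibitor, rose from 39.8 to 78.9 CPM in synoviocytes (adjusted p = 0.024, 0.060 with the donor term). TNFAIP3, which encodes the ubiquitin editor A20, rose there from 12.5 to 23.5 CPM (adjusted p = 0.016). The subunit genes NFKB1 and NFKB2 rose there by 0.62 ± 0.13 and 0.46 ± 0.11 on the log2 scale. Of 21 NF-κB genes, these 6 and TNIP3 rose in synoviocytes, against 4.08% of all genes. In chondrocytes 0 passed by the fit on groups alone and 9, all higher, with the donor term, against 13%. RELA, the subunit that carries most of the activity, was at 95.6 and 101 CPM in chondrocytes and 85.4 and 81.3 CPM in synoviocytes. Upstream, against 4.08% and 2.95% of all genes, 2 of 23 receptor and adaptor genes rose and 1 fell in synoviocytes. These were IRAK2, a kinase of the IL-1 receptor complex (from 17.99 to 36.8 CPM, adjusted p = 0.0019), BIRC3, a ubiquitin ligase of the TNF receptor complex (from 117 to 180.0 CPM, adjusted p = 0.018), and IRAK1 (from 200.3 to 149 CPM, adjusted p = 0.044, 0.052 with the donor term). In chondrocytes 6 rose and 5 fell with the donor term, against 13% and 12.1% of all genes, among them TNFRSF1B, the second TNF receptor, at 30.95 and 12.1 CPM (adjusted p = 0.21, 9.6e-06 with the donor term). The signalling receptors were present in every untreated culture, with IL1R1 at 53.9 CPM in chondrocytes, 62.7 CPM in synoviocytes and 12.9 CPM in macrophages, and TNFRSF1A at 126, 115 and 90.4 CPM. IL1RN, the secreted receptor antagonist, reached the count minimum in macrophages alone, at 135 and 154 CPM. Macrophages also carried the decoy receptor IL1R2 at 15.3 CPM, against 0.0738 and 0.0316 CPM in untreated chondrocytes and synoviocytes. Their TNFAIP3 stood at 183 CPM without cytokines, above the 62.1 and 23.5 CPM that chondrocytes and synoviocytes reached with them.

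Matrix proteases gave a second group of large rises. MMP12, the macrophage elastase, rose in chondrocytes from 102 to 12006 CPM (log2 fold change 6.88 ± 1.17, adjusted p = 0.032) and in synoviocytes from 482 to 8497 CPM (4.14 ± 0.26, adjusted p = 4.9e-07), while macrophages held 196 and 177 CPM. MMP1, the interstitial collagenase, was at 52.3 and 17672 CPM in chondrocytes (adjusted p = 0.059, 4.1e-10 with the donor term) and rose from 616 to 6181 CPM in synoviocytes (adjusted p = 4.7e-07). MMP13, the collagenase most tied to type II collagen, rose in chondrocytes from 789 to 5121 CPM (adjusted p = 0.046) and in synoviocytes from 112 to 681 CPM (adjusted p = 0.016). Untreated chondrocytes thus started higher for MMP13 and lower for MMP1 and MMP12 than untreated synoviocytes. Of the aggrecanases, ADAMTS4 rose from 7.57 to 22.1 CPM in synoviocytes (adjusted p = 3.0e-05) and was at 7.93 and 25.8 CPM in chondrocytes (adjusted p = 0.088, 4.6e-05 with the donor term). ADAMTS5 was at 87.7 and 152 CPM in chondrocytes and 273 and 373 CPM in synoviocytes, and did not pass in either by the fit on groups alone (adjusted p = 0.38 and 0.10), while with the donor term it rose in chondrocytes (adjusted p = 0.0013). TIMP1, an inhibitor of the same enzymes, rose in both, from 586 to 1599 CPM (adjusted p = 0.017) and from 295 to 513 CPM (adjusted p = 0.0035). Of 30 proteases and inhibitors tested, 10 rose and 3 fell in synoviocytes, against 4.08% and 2.95% of all genes. In chondrocytes 5 rose, against 0.628%, and 11 rose and 9 fell with the donor term, against 13% and 12.1%. MMP9, the gelatinase of macrophages, was at 25054 and 18569 CPM in macrophages and at 261 and 137 CPM in chondrocytes.

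Genes of the route from membrane lipid to prostaglandin E2 were higher in both stromal cells. PLA2G2A, a secreted phospholipase, rose in chondrocytes from 13.7 to 215 CPM (log2 fold change 3.97 ± 0.52, adjusted p = 0.014) and in synoviocytes from 7.101 to 351 CPM (5.63 ± 0.30, adjusted p = 1.0e-07). PTGS2, which encodes the inducible cyclooxygenase COX-2, was at 5.61 and 3526 CPM in chondrocytes (adjusted p = 0.19, 4.6e-08 with the donor term) and rose from 34.3 to 654 CPM in synoviocytes (adjusted p = 1.4e-06). In the 3 ORC medium chondrocyte libraries it reached 132 to 357 CPM. PTGES, the prostaglandin E synthase, rose in both, from 192 to 1037 CPM (adjusted p = 0.021) and from 205 to 527 CPM (adjusted p = 3.0e-05). PTGIS, the prostacyclin synthase that competes for the same precursor, fell in both, from 17.6 to 3.68 CPM (adjusted p = 0.019) and from 37.9 to 10.9 CPM (adjusted p = 5.7e-04). NOS2, the inducible nitric oxide synthase, rose from 0.284 to 8.22 CPM in synoviocytes (adjusted p = 0.0089) and was at 18.7 and 361 CPM in chondrocytes (adjusted p = 0.40, 4.3e-06 with the donor term). Of 16 genes of this list, 6 rose and 1 fell in synoviocytes, against 4.08% and 2.95% of all genes. In chondrocytes 2 rose and 1 fell, against 0.628% and 0.338%. With the donor term 6 rose and 2 fell there, against 13% and 12.1%, the falls being near that share. In macrophages PTGS2 was at 31.8 and 32.6 CPM.

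Among acute phase and defence genes, SAA1, a serum amyloid A, rose from 1717 to 8029 CPM in chondrocytes (adjusted p = 0.036) and from 194 to 3097 CPM in synoviocytes (adjusted p = 1.7e-04), and the near-identical gene SAA rose from 16.1 to 429 CPM in synoviocytes. Reads of the 2 genes may have been split or lost in counting, so their separate levels are uncertain. TNFAIP6, the hyaluronan-binding protein TSG-6, rose from 16.6 to 98.8 CPM in synoviocytes (adjusted p = 7.1e-07) and was at 25.9 and 369 CPM in chondrocytes (adjusted p = 0.25, 2.7e-10 with the donor term). LCN2 (lipocalin-2) fell from 5.05 to 1.75 CPM in synoviocytes (adjusted p = 0.039, 0.073 with the donor term) and SLPI, a protease inhibitor of secretions, fell from 27.7 to 7.56 CPM in chondrocytes (adjusted p = 0.014). Of 22 genes tested in synoviocytes 5 rose and 2 fell (5 and 0 with the donor term), against 4.08% and 2.95% of all genes. Of 23 in chondrocytes 1 rose and 1 fell, and 8 rose and 9 fell with the donor term, against 13% and 12.1%. Of 55 interferon-stimulated genes tested in chondrocytes 1 rose, against 0.628% of all genes. With the donor term 2 rose and 6 fell there, against 13% and 12.1%. Of 57 in synoviocytes 1 rose and 1 fell, against 4.08% and 2.95%. RSAD2, an antiviral enzyme, rose in both stromal cells, from 12.4 to 39.6 CPM (adjusted p = 0.014) and from 4.17 to 13.5 CPM (adjusted p = 1.8e-04), and GBP6 fell in synoviocytes, while none of the other genes of this list passed in either by the fit on groups alone. The median log2 change of list members averaging at least 1 CPM was −0.35 in chondrocytes, −0.04 in synoviocytes and 0.12 in macrophages. That of all such genes was 0.02, −0.01 and −0.01.

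Cartilage matrix genes were lower with the cytokines. ACAN fell from 96.7 to 6.06 CPM in chondrocytes (log2 fold change −4.00 ± 0.70, adjusted p = 0.038), and from the far lower 3.47 to 0.658 CPM in synoviocytes (−2.39 ± 0.50, adjusted p = 0.010). COMP, the cartilage oligomeric matrix protein, fell from 163 to 28.8 CPM in chondrocytes (adjusted p = 0.030) and was at 1.86 and 1.9001 CPM in synoviocytes. SOX9, the master regulator of the cartilage programme, fell from 16.7 to 3.73 CPM in synoviocytes (adjusted p = 2.4e-04) and was at 46.6 and 8.86 CPM in chondrocytes (adjusted p = 0.59, 3.0e-06 with the donor term). Its level was 42.99 to 70.5 CPM in the 3 ORC medium chondrocyte libraries and 7.53 to 10.6 CPM in the other 6. Of 24 cartilage genes tested in chondrocytes 2 fell and none rose, against 0.338% of all genes lower, and 10 fell with the donor term, against 12.1%. Of 22 in synoviocytes 6 fell, against 2.95%, and MATN3 alone rose. The median log2 change of members averaging at least 1 CPM was −2.20 in chondrocytes and −0.83 in synoviocytes, where that of all such genes was 0.02 and −0.01.

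Of the wider stromal matrix, small leucine-rich proteoglycans gave large falls. ASPN (asporin) fell from 21.9 to 0.476 CPM in chondrocytes (log2 fold change −5.52 ± 0.77, adjusted p = 0.014) and from 195 to 28.5 CPM in synoviocytes (−2.78 ± 0.42, adjusted p = 0.0010). OGN (osteoglycin) fell from 237 to 10.8 CPM (adjusted p = 0.021) and from 276 to 89.5 CPM (adjusted p = 0.016), and PODN (podocan) from 66.5 to 10.99 CPM in chondrocytes (adjusted p = 0.013). COL1A1, the abundant chain of type I collagen, was at 24078 and 10236 CPM in chondrocytes (adjusted p = 0.43, 1.1e-05 with the donor term) and 48918 and 35221 CPM in synoviocytes (adjusted p = 0.13). COL6A3, a chain of the pericellular collagen VI, fell from 2049 to 794 CPM in synoviocytes (adjusted p = 2.8e-05) and was at 4286 and 564 CPM in chondrocytes (adjusted p = 0.21, 4.9e-08 with the donor term). COL12A1, a collagen that bridges fibrils, rose from 5223 to 8849 CPM in synoviocytes (adjusted p = 0.016). Of 27 genes tested, 5 fell and 2 rose in synoviocytes, against 2.95% and 4.08% of all genes. In chondrocytes 2 fell, against 0.338%, and 18 fell and 1 rose with the donor term, against 12.1% and 13%.

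Metabolic pathways moved by smaller amounts across many members. Of 25 cholesterol synthesis genes, 12 rose and 1 fell in synoviocytes, against 4.08% and 2.95% of all genes, with a median log2 change of 0.50. In chondrocytes 4 rose, against 0.628% (23 with the donor term, against 13%), with a median of 1.13. FDPS, the farnesyl diphosphate synthase, rose from 30.1 to 67.9 CPM in synoviocytes (adjusted p = 0.0015). Of 29 glycolysis and hypoxia genes, 7 rose and 1 fell in synoviocytes, against 4.08% and 2.95% of all genes. With the donor term 4 rose and 0 fell there, against 3.39% and 2.2%. In chondrocytes 2 rose, against 0.628%, and 22 rose and 1 fell with the donor term, against 13% and 12.1%. SLC2A1, the glucose transporter GLUT1, rose from 361 to 1204 CPM in synoviocytes (adjusted p = 1.6e-06) and was at 293 and 2750.2 CPM in chondrocytes (adjusted p = 0.25, 3.5e-07 with the donor term). ALDOC, an aldolase, rose in both, from 45.5 to 146 CPM (adjusted p = 0.014) and from 30.3 to 50.3 CPM (adjusted p = 0.039, 0.077 with the donor term).

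Genes of the cytosolic ribosome were lower together. Of 65 tested, 47 fell and none rose in synoviocytes, against 2.95% of all genes lower (27 with the donor term, against 2.2%), and 0 passed in chondrocytes by the fit on groups alone (53 fell with the donor term, against 12.1%). All 65 had a log2 change below 0 in each stromal cell, with medians of −0.46 in chondrocytes and −0.50 in synoviocytes, and the summed level went from 33918 to 23998 CPM and from 36161 to 25191 CPM. RPS6, a protein of the small subunit, fell from 875 to 554 CPM in synoviocytes (adjusted p = 0.0086). In macrophages 0 of 66 passed, with a median of −0.13, where that of all genes was −0.01. Only 2 of the 65 averaging at least 1 CPM there had a log2 change above 0. The 65 genes were read from 1 pair of libraries and are not replicates, and a fall shared with macrophages was not tested. These genes have many processed copies in mammalian genomes, so how reads were split among copies is uncertain. Cell cycle genes gave no call in synoviocytes, where the median log2 change of the 47 tested was 0.17, and none in chondrocytes by the fit on groups alone. With the donor term 20 fell and 1 rose in chondrocytes, against 12.1% and 13% of all genes, where the median was −0.33, and CDC20, an activator of the anaphase-promoting complex, was at 124 and 51.5 CPM there and 98.9 and 98.1 CPM in synoviocytes.

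**Figure D2:**
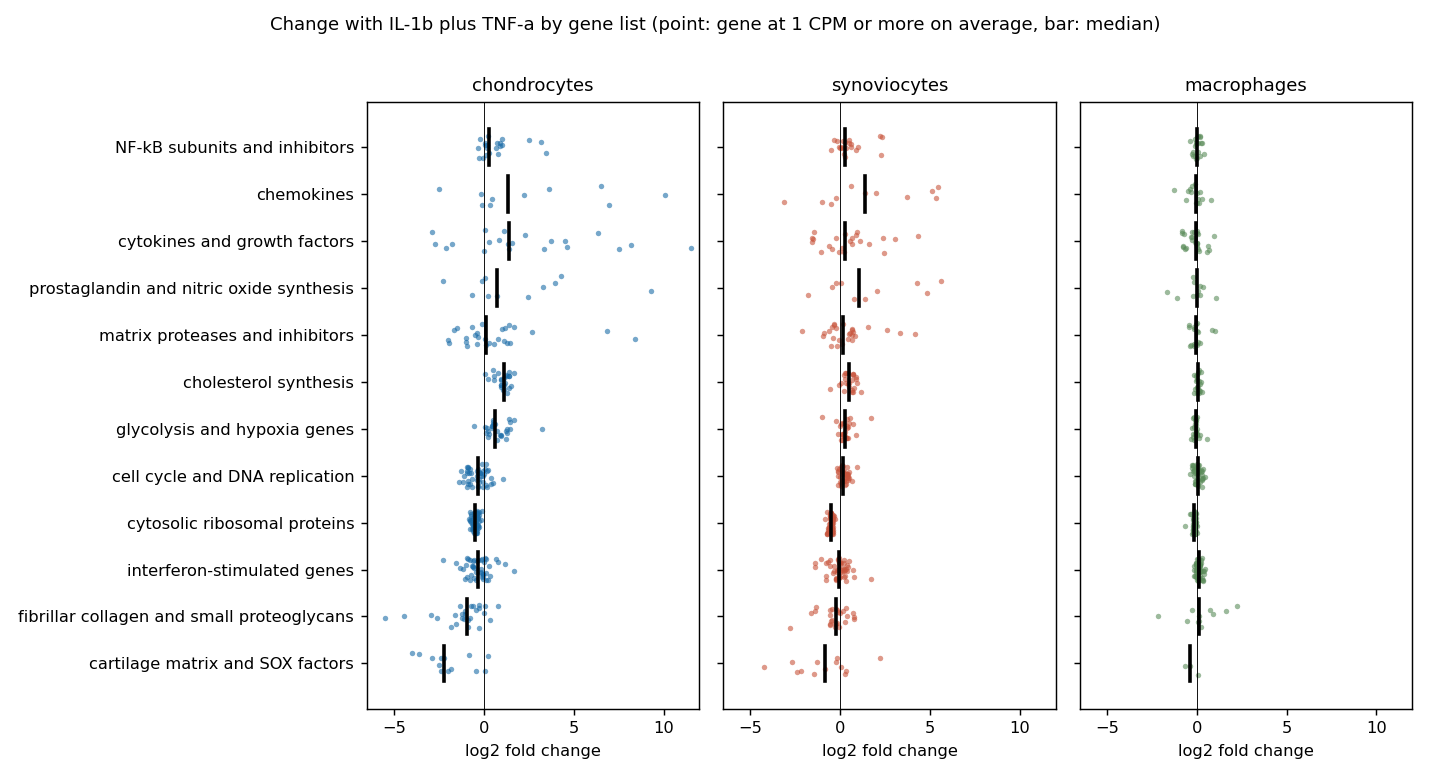
Log2 fold change of IL-1β plus TNF-α against no addition (horizontal axis) for the members of 12 gene lists that averaged at least 1 CPM, with 1 panel for each cell type, a point for each gene and a black bar for the median. Cholesterol synthesis lies to the right (median 1.13 in chondrocytes, 0.50 in synoviocytes), cytosolic ribosomal proteins and cartilage matrix genes to the left (−0.46 and −2.20 in chondrocytes). In macrophages the cholesterol median is 0.05 and the ribosomal median −0.13.

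The genes shared by chondrocytes and synoviocytes were counted from the separate tests, which have no library in common. Of the 91 genes that rose in chondrocytes, 64 (70.3%) also rose in synoviocytes, where they were 10.6% of the 602 that rose. Of the 49 that fell in chondrocytes, 25 (51%) also fell in synoviocytes, which is 5.73% of 436. With the donor term 398 rose in both (21.1% of the chondrocyte and 79.6% of the synoviocyte genes) and 250 fell in both (14.3% and 76.9%). No gene passed in opposite directions by the fit on groups alone. By size alone, 225 genes were at least 2-fold higher in both, 34% of the chondrocyte and 61.3% of the synoviocyte genes, and 167 were at least 2-fold lower in both, 24.7% and 54.8%. Over those shared genes the change was larger in chondrocytes for 174 of 225 and 140 of 167, with median log2 changes of 2.05 against 1.53 and of −2.06 against −1.34. Across the 9415 genes averaging at least 5 CPM in both cell types, the 2 sets of changes had a Pearson r of 0.742 and a Spearman rho of 0.588, a description across genes, which are not independent replicates. Between chondrocytes and macrophages r was −0.0258 over 8453 genes, and between synoviocytes and macrophages 0.0607. No gene passed in all 3 cell types. At least 2-fold higher in all 3 were 4 genes, chosen once their values were known, BMP4, ENOX1, IL36G and SLC6A12. Of these SLC6A12, a transporter of betaine and GABA, rose from 11.2 to 211 CPM in chondrocytes and from 0.852 to 5.59 CPM in synoviocytes and was at 3.29 and 7.004 CPM in macrophages, where it did not pass.

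**Figure D3:**
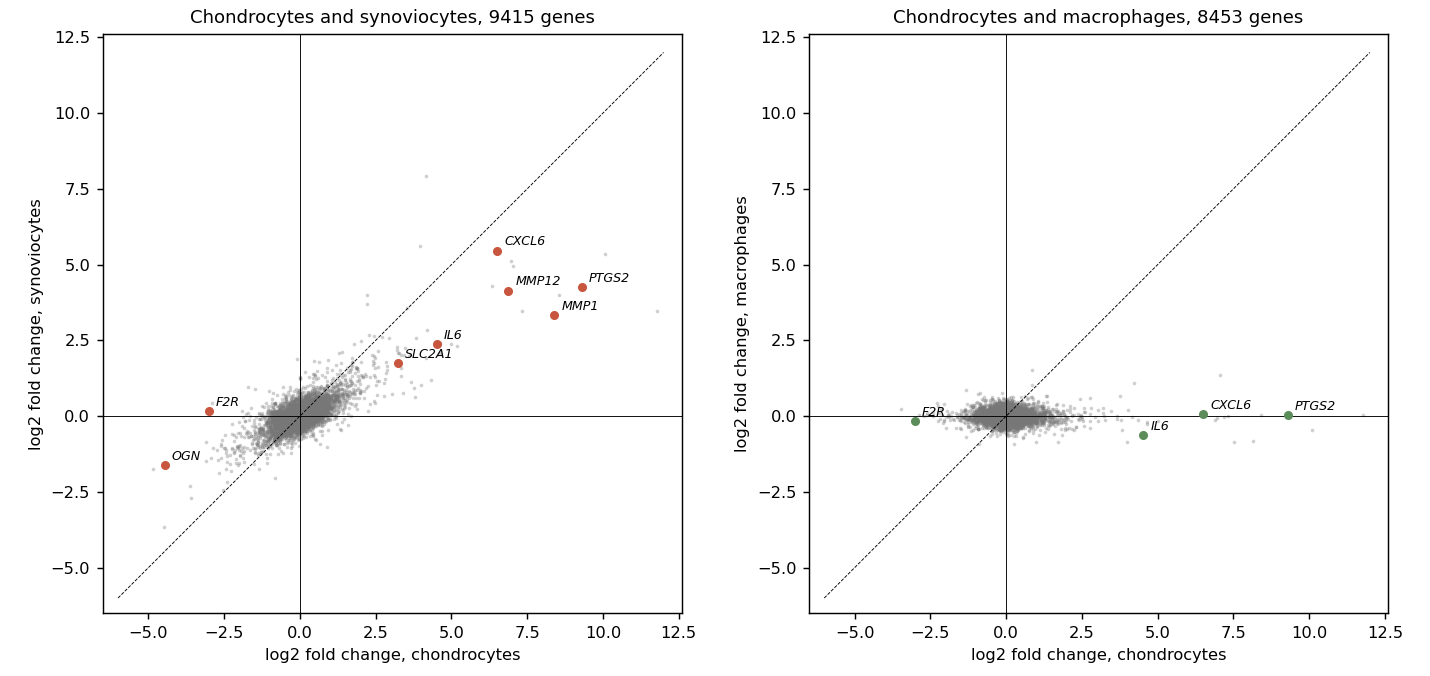
Log2 fold change of IL-1β plus TNF-α against no addition in chondrocytes (horizontal axis) and in synoviocytes (left, 9415 genes) or macrophages (right, 8453 genes), with 1 grey point for each gene averaging at least 5 CPM in both named genes in colour and the line of equal change dashed. On the left the points follow a line flatter than that of equal change (Pearson r = 0.742), and on the right they lie along the horizontal axis (r = −0.0258). F2R, labelled, lies at −3.01 in chondrocytes with no drop in synoviocytes.

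Whether a change was particular to a cell type was tested as a difference of differences in a joint fit of all 33 joint cell libraries (18 residual degrees of freedom). A gene was called private to a cell type only where it passed there and not in the others and both such differences passed in the same direction. By this rule 1 gene was private, F2R, the thrombin receptor PAR1. F2R was at 19.96 CPM without and 2.48 CPM with the cytokines in chondrocytes (log2 fold change −3.01 ± 0.51, adjusted p = 0.030), at 34.3 and 38.6 CPM in synoviocytes and at 23.8 and 21.1 CPM in macrophages. The 9 conditioned medium chondrocyte libraries ran from 3.44 to 6.81 CPM, below the untreated library. The change in chondrocytes differed from that in synoviocytes by −3.19 ± 0.47 (log2, SE, adjusted p = 0.012) and from that in macrophages by −2.85 ± 0.47 (adjusted p = 0.0065). In all, the change differed between chondrocytes and synoviocytes for 1 gene of 16744, F2R (0.00597%), between chondrocytes and macrophages for 33 in the higher and 13 in the lower direction (0.197% and 0.0776%), and between synoviocytes and macrophages for none, with 690 at an unadjusted p under 0.05 and 20 by DESeq2. With the donor term these counts were 164, 915 and 96. The mean change over the 3 cell types passed for 223 genes in the higher and 134 in the lower direction (1.33% and 0.8%), or 1747 in all with the donor term. With the 6 single libraries alone, taken as 3 pairs, 0 genes of 15072 passed by edgeR for the mean change, with 1395 at an unadjusted p under 0.05.

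Under the fit with the donor term, the same rule gave 44 genes that rose and 36 that fell privately in chondrocytes, 1 that rose privately in synoviocytes and none in macrophages. The libraries of synoviocytes paired by donor only in part, so their part of this fit rests on the assumption that they do so throughout. Among the chondrocyte genes were INSIG1, a sensor of sterols (34.3 and 91.95 CPM in chondrocytes, 46.7 and 53.7 CPM in synoviocytes) and BNIP3, a mitophagy receptor induced by hypoxia (368 and 1007 CPM against 626 and 748 CPM). F3, tissue factor, was at 28.8 and 143 CPM in chondrocytes and 74.3 and 97.3 CPM in synoviocytes. Lower in chondrocytes by this rule were TNFRSF1B, the peroxide-degrading enzyme CAT (262 and 109.9 CPM against 86.3 and 109 CPM) and mitotic genes such as CDC20 and KIF20A. The synoviocyte gene was SLC43A2, an amino acid transporter (55.9 and 135 CPM against 57.1 and 70.2 CPM in chondrocytes). A further 58 genes that rose and 15 that fell were shared by the stromal cells and differed from macrophages in both, including CXCL6, CXCL1, IL6, PTGS2, MMP12, NFKBIZ and TNFAIP6 among the rises and CSF1 and IL16 among the falls.

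Opposite directions between the stromal cells were rare. At least 2-fold in opposite directions were 5 genes, ASS1, EGLN3, SCN4B, GLDC and SPOCK1, named after their values were seen. EGLN3, a prolyl hydroxylase that marks HIF for degradation, was at 45.3 and 109.6 CPM in chondrocytes (adjusted p = 0.57, 1.4e-06 with the donor term) and fell from 9.31 to 4.57 CPM in synoviocytes (adjusted p = 0.032, 0.059 with the donor term). With the donor term 8 genes passed in opposite directions. Among them HSPA5, the chaperone BiP of the endoplasmic reticulum, was at 1068 and 1439 CPM in chondrocytes and 1039.9 and 656 CPM in synoviocytes.

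The largest changes by the test included genes of other functions. GPX3 and SCRG1, named here, are also counted in the antioxidant and cartilage lists. In chondrocytes PRNP, the prion protein gene, rose from 4.91 to 68.2 CPM (adjusted p = 0.014), LYN, a Src family kinase better known in blood cells, from 0.664 to 13.5 CPM (adjusted p = 0.014), and the transcription factor gene SP6 from 0.295 to 9.99 CPM (adjusted p = 0.016). In synoviocytes LYN rose from 13.9 to 31.8 CPM (adjusted p = 0.0093), while PRNP was at 16.4 and 25.7 CPM (adjusted p = 0.33). IL13RA2, the decoy receptor of IL-13, rose in both, from 2.55 to 29.1 CPM (adjusted p = 0.049) and from 11.6 to 55.9 CPM (adjusted p = 6.6e-06). NRG1, a ligand of ERBB receptors, rose from 0.126 to 10.3 CPM in synoviocytes (adjusted p = 3.0e-05). In the lower direction GPX3, the secreted glutathione peroxidase, fell from 148 to 14.2 CPM in chondrocytes (log2 fold change −3.38 ± 0.30, adjusted p = 0.0048) and from 13.1 to 2.996 CPM in synoviocytes (adjusted p = 0.0027). EPHB2, an ephrin receptor, fell from 5.903 to 0.4005 CPM and from 6.97 to 0.8404 CPM (adjusted p = 0.031 and 1.0e-03). In synoviocytes SCRG1, a gene linked to cartilage differentiation, fell from 15.1 to 0.804 CPM, SNED1, a basement membrane protein gene, from 39.4 to 3.11 CPM, and TNXB (tenascin-X) from 10.2 to 1.39 CPM (adjusted p = 1.1e-04, 9.9e-04 and 0.0020).

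In macrophages no difference passed, and few were of any size. At least 2-fold and at least 5 CPM in the higher library were 7 genes higher and 6 lower, none of which passed (adjusted p = 1). CCL24, an eosinophil chemokine, was at 17.2 CPM without and 7.17 CPM with the cytokines, below the 12.2 to 39.05 CPM of the conditioned medium libraries. GJA1 (connexin 43) was at 8.29 and 2.88 CPM, again below the 3.17 to 6.25 CPM of those libraries. CTLA4, an inhibitory receptor of T cells, was at 11.1 and 5.25 CPM, with 5.26 to 10.1 CPM in those libraries. Whether fewer T cells or less CTLA4 transcript per cell was present cannot be told apart in these bulk libraries. BHLHE41, a transcription factor gene, was at 14.8 and 30.4 CPM, with 19.97 to 76.6 CPM in the conditioned medium libraries.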

How the data were processed

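The data were read counts per protein-coding gene, deposited as 1 table of whole numbers over 20881 genes (3970 by Ensembl identifier only). Per the labels and the study's methods, the authors used cutadapt 1.12 to trim the read pairs and STAR to place them on EquCab3.0, and HTSeq 0.11.0 gave the counts. In 6 genes values were rounded to 3 digits in the deposited table. Coordinates are not given in the table and none are reported. Each of the 6 single libraries held 24461421 to 39558744 counts, and the 33 joint cell libraries 23525704 to 54103873. Intervals and floors (3 counts) cover counting error only.

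Genes reaching 10 counts in all over the fitted libraries were compared with the quasi-likelihood test of edgeR 4.0.16 (R 4.3.3, TMM scaling) on 5 group means for each cell type, and in a joint fit of 15 means. Calls required a Benjamini-Hochberg adjusted p under 0.05. CPM used TMM-scaled library sizes. Nothing says that the conditioned medium libraries of a group came from separate cultures beyond the MSC donor, so p-values measure only the spread between those libraries. Same-donor libraries of different medium groups deviated together in chondrocytes (r 0.601 to 0.904 across genes) and macrophages (0.355 to 0.584). Pairs of different donors ran from −0.798 to 0.647 and from −0.604 to 0.387. In chondrocytes those of AG1 with PC were all positive. Same-donor synoviocyte pairs ran from −0.363 to 0.403, and from 0.120 to 0.403 between the TLR3 and STING groups. The resting synoviocyte libraries of AG1 and ORC correlated negatively with their own donor's other libraries and positively with the other donor's (0.311 to 0.359). The donor names come from the cell line labels of the joint cell libraries. AG1 and ORC are on no MSC library of the series. That they name MSC donors is therefore an inference, and the donor term groups libraries by these names. Each single library carries such a name although it received no medium, and was set to the level of donor AG1 in the blocked fit. The name is ORC on both single libraries of chondrocytes and of macrophages. For synoviocytes it is PC with the cytokines and ORC with no addition, and what this means for that pair was not tested. The scripts were tested on simulated data. The comparison, its members and the 25 gene lists were chosen with earlier results of these data known. Named genes were up to 8 of the largest called changes in each direction in a cell type at 5 CPM or more, up to 5 members of each list by the size of the change at 5 CPM or more, called members of the receptor and NF-κB lists, and private genes. Genes outside this rule were chosen after their values were seen. DESeq2 1.42.0, other scalings and filters, the donor block and leaving out libraries were tried.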

Additional observations from a re-analysis of the deposited data

Results flagged for a closer look

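The change with IL-1β and TNF-α differed between cell types, by the difference of differences in edgeR's joint fit, for F2R between chondrocytes and synoviocytes (−3.19 ± 0.47 on the log2 scale, SE, adjusted p = 0.012). Between chondrocytes and macrophages, 11 named genes differed. F2R differed by −2.85 ± 0.47 (adjusted p = 0.0065) and GPX3 by −2.92 ± 0.56 (adjusted p = 0.023), both moving lower in chondrocytes. Inflammatory genes moved higher in chondrocytes than in macrophages, MMP1 by 8.35 ± 1.64 (adjusted p = 0.024), MMP12 by 7.003 ± 1.07 (adjusted p = 0.0062), CXCL6 by 6.43 ± 1.35 (adjusted p = 0.039) and NFKBIZ by 3.26 ± 0.70 (adjusted p = 0.048). Of genes of other functions, SP6 differed by 5.67 ± 0.92 (adjusted p = 0.0062), LYN by 4.46 ± 0.78 (adjusted p = 0.0095) and PRNP by 3.90 ± 0.67 (adjusted p = 0.0092). The hypoxia-responsive ALDOC and BNIP3 differed by 1.90 ± 0.32 (adjusted p = 0.0074) and 1.71 ± 0.34 (adjusted p = 0.024). Each difference compares 2 single libraries with 2 single libraries from 1 horse to a cell type, and whether the cell types came from the same horse is not clear from the sources used here.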

How the results depend on the processing

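With 1 library on each side, every p rests on the spread of the conditioned medium libraries, and genes with few counts have wide errors. The genes called numbered 140 in chondrocytes, 1038 in synoviocytes and 0 in macrophages. In chondrocytes the count was 789 by DESeq2 (433 higher, 356 lower), 3636 with the replicate block by MSC donor, 698 in the joint fit (406 higher, 292 lower), 1 with the spread of the resting medium group and 2638 without the 3 ORC medium libraries, an alternative chosen after seeing the data. Leaving out 1 library gave 75 (without the TLR3 medium library of replicate 3) to 301 (without that of replicate 2, an ORC library). Below the main count by more than 1.5 times were also 85 and 77 without resting medium replicates 2 and 3 and 92 without STING medium replicate 3. In synoviocytes the count was 61 in the joint fit (46 higher, 15 lower) and 685 with the resting spread (419 higher, 266 lower). It was 825 with the replicate block, where same-donor libraries deviated together only in part, and 816 to 1362 with 1 library left out. Macrophages stayed at 0 under each, with 153 genes at an unadjusted p under 0.05 by edgeR and 97 by DESeq2. At 4-fold in place of 2-fold the counts were 401, 140 and 8 for chondrocytes, synoviocytes and macrophages, against 1339, 672 and 116. The mean change over the cell types passed for 357 genes, for 800 by DESeq2, 1747 with the replicate block, 1017 without the ORC libraries, 0 over the 6 single libraries (1395 at an unadjusted p under 0.05) and 307 to 491 with 1 library left out. The difference of chondrocytes from synoviocytes passed for 1 gene, for 18 by DESeq2, 164 with the replicate block, 46 without the ORC libraries and 1 with any 1 library left out. The difference of chondrocytes from macrophages passed for 46, for 234 by DESeq2, 915 with the replicate block, 415 without the ORC libraries and 34 to 108 with 1 library left out, the highest without the chondrocyte TLR3 medium library of replicate 2. The difference of synoviocytes from macrophages passed for 0, for 20 by DESeq2, 96 with the replicate block, 25 without the ORC libraries and 0 to 1 with 1 library left out. The cause of these moves was not tested. No named call of the main fits changed direction. Every alternative compared the same single libraries, so it could hardly have turned a direction. Genes called only with the donor term were not followed in this way. Of 22 named genes called in chondrocytes, 22 passed by DESeq2 and with the replicate block, 19 under edgeR's own filter, 21 under RLE scaling and 1 with the resting spread, and of 63 in synoviocytes 63 passed by DESeq2, 56 with the replicate block and 10 in the joint fit.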

Other observations

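Adhesion molecules, stress genes and antigen presentation gave some calls. Calls in synoviocytes here and in the next paragraph are to be read against 4.08% higher and 2.95% lower of all genes. VCAM1, which binds leukocyte integrins, rose in synoviocytes from 773 to 1273 CPM (adjusted p = 0.0023) and ICAM1, its counterpart for neutrophils, from 157 to 272 CPM (adjusted p = 0.0064), the 2 calls among 18 adhesion genes there. In chondrocytes 0 of 19 passed (3 rose and 1 fell with the donor term, against 13% and 12.1% of all genes), and VCAM1 was at 205 and 262 CPM. Of 17 antioxidant and metal response genes, PRDX2 and FTH1 rose and HMOX1, SLC7A11 and GPX3 fell in synoviocytes, and GPX3 fell in chondrocytes (5 rose and 2 fell with the donor term, against 13% and 12.1%). HMOX1, which breaks down heme, was at 292 and 196 CPM in synoviocytes. SOD2, the mitochondrial superoxide dismutase, was at 711 and 3971 CPM in chondrocytes (adjusted p = 0.27, 7.6e-09 with the donor term) and 570.4 and 1399 CPM in synoviocytes (adjusted p = 0.069).

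Of 16 MHC class I processing genes, TAP1, a peptide transporter subunit, rose in synoviocytes from 34.2 to 46.9 CPM (adjusted p = 0.030, 0.054 with the donor term), and 0 passed in chondrocytes (1 rose and 2 fell with the donor term, against 13% and 12.1%). Of 9 MHC class II and costimulation genes tested in synoviocytes CD40 alone passed, from 12.1 to 20.3 CPM (adjusted p = 0.037, 0.053 with the donor term). Of 23 contractile and TGF-β target genes, TPM1, CALD1 and SKIL rose in synoviocytes and CCN1 in chondrocytes (3 rose and 7 fell with the donor term, against 13% and 12.1%). Of the synovial fibroblast markers THY1, the CD90 surface protein gene, fell in synoviocytes from 690.0 to 317 CPM (adjusted p = 4.4e-04). In macrophages 0 members of any list passed by edgeR.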
